A study of Mus musculus with 6 samples.

Results

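The mitochondrial carrier family, gene symbols that begin with Slc25a, was followed through RNA sequencing of sorted mouse kidney epithelial cells that had lost TRF1 or kept it. TRF1 (gene Terf1) is a shelterin protein that protects telomeres. Every row of the deposited table whose symbol starts with Slc25a was taken, which gave 42 of 16095 genes: 41 carrier genes and 1 pseudogene row, Slc25a5-ps. The Terf1_flox group held 3 libraries from Trf1lox/lox KFP+/t Cre+/t mice, and the control group held 3 libraries from Trf1+/+ KFP+/t Cre+/t mice. Both groups thus carried the fluorescent reporter KFP and a tamoxifen-inducible Cre under the Ksp-cadherin promoter, which limits recombination to cells that use this promoter. Male and female mice of both groups were 6 to 8 weeks old at the first tamoxifen dose and were injected 3 times a week for 8 weeks. Cells were sorted from digested kidneys by an EpCAM antibody and the reporter, and a low-input kit was used to prepare the libraries. The sources do not say whether a library stands for 1 mouse or several, nor its sex, so the p-values measure only the spread between libraries, which may be technical.

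Carriers of this family sit in the inner mitochondrial membrane, with a few exceptions in other membranes, and are built from repeated modules of paired membrane-spanning helices. Each exchanges or imports a small set of solutes that the membrane otherwise holds back: adenine nucleotides and phosphate for ATP synthesis, di- and tricarboxylates, amino acids, acylcarnitines, cofactors, iron and glutathione. Tubule cells of the distal nephron spend much ATP on ion transport and depend on this traffic.

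The libraries held 13582140 to 17680986 reads over the deposited genes, and all values below are normalized counts, reads scaled by 1 size factor per library, unless another scale is named. Terf1 itself had 62.0, 24.6 and 25.3 normalized counts in the Terf1_flox libraries, against 529.6, 486.1 and 663.9 in the control libraries. The log2 fold change of Terf1, Terf1_flox over control throughout, was −3.99 ± 0.61 (± is the standard error after every log2 fold change). Its limma adjusted p was 0.0814, and an exact two-sided permutation test gave 0.1, the smallest p that 3 libraries against 3 allow. Correlations of log2 values across genes ran from 0.734 to 0.75 within Terf1_flox, from 0.781 to 0.814 within control and from 0.726 to 0.766 between the groups; genes are not independent replicates. Distal tubule markers were abundant. The 5 thick ascending limb markers summed to 132731 to 140049 in Terf1_flox and 159286 to 203731 in control libraries, but did not move together. Umod (log2 fold change −0.90 ± 0.15) and Kcnj1 (−0.90 ± 0.26) were lower without overlap. Slc12a1 (0.47 ± 0.13) was higher without overlap, and Cldn16 and Cldn10 overlapped. The 5 distal convoluted and connecting tubule markers summed to 72235 to 127389 in Terf1_flox and 67945.5 to 138106 in control libraries. Proximal tubule markers (6 of 7 with a row) summed to 1247 to 5341 in Terf1_flox and 1762 to 2057 in control libraries, and intercalated cell markers (6 of 6) to 6010.3 to 11420.3 and 8811 to 20196. All 6 intercalated cell markers were below 0 (52.8% of all genes tested were), with a median log2 fold change of −1.33. Of them 1, Rhcg (−1.63 ± 0.33), was lower without overlap, against 10.8% of all genes tested, and the others overlapped. The 4 endothelial and 2 podocyte markers were not analysed here, and the 3 of 7 macrophage and 2 of 5 lymphocyte markers with one summed to under 150 in each library. Epcam, the sorting antigen, had 1831, 1434 and 2977 normalized counts in Terf1_flox and 4510, 5087 and 4416 in control libraries. In such bulk samples fewer cells of a type and less RNA per cell cannot be told apart, and the part of these shifts in the carrier results was not tested.

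All 42 members passed the filter of a mean of at least 10 normalized counts, so none was lost from the tests. At an adjusted p below 0.05, limma called 0 of 42 members and 0 of 14822 genes tested (0.0%), and edgeR also called 0 of 42 (0.0% of genes), with 9 members at an unadjusted p below 0.05, against 13.4% of genes. At an unadjusted p below 0.05, limma counted 10 members lower in Terf1_flox libraries (23.8% of the 42, against 8.43% of all genes tested) and 1 higher (2.38%, against 5.7%). The groups did not overlap for 10 members that were lower (23.8%, against 10.8% of all genes tested) and 2 that were higher (4.76%, against 10.3%). DESeq2 on the recovered reads called 6 members (14.3%, against 5.21% of genes): 5 lower (3.0% of genes were) and 1 higher (2.21% of genes were). On simulated data with 3 libraries per group, a far larger share of DESeq2 calls than of limma or edgeR calls was false. This limit applies to every DESeq2 p given here. In the same data limma and edgeR missed most of the smaller changes put in and many of the largest. A member that was not called may thus still differ, also by a large fold. With equal library totals limma called 0 carriers and 0.304% of genes, and with quantile normalization 0 carriers and 0.054% of genes. The median log2 fold change was −0.26 over the carriers and −0.08 over all genes tested, with 27 carriers below 0 (64.3%, against 52.8% of genes).

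**Figure D1:**
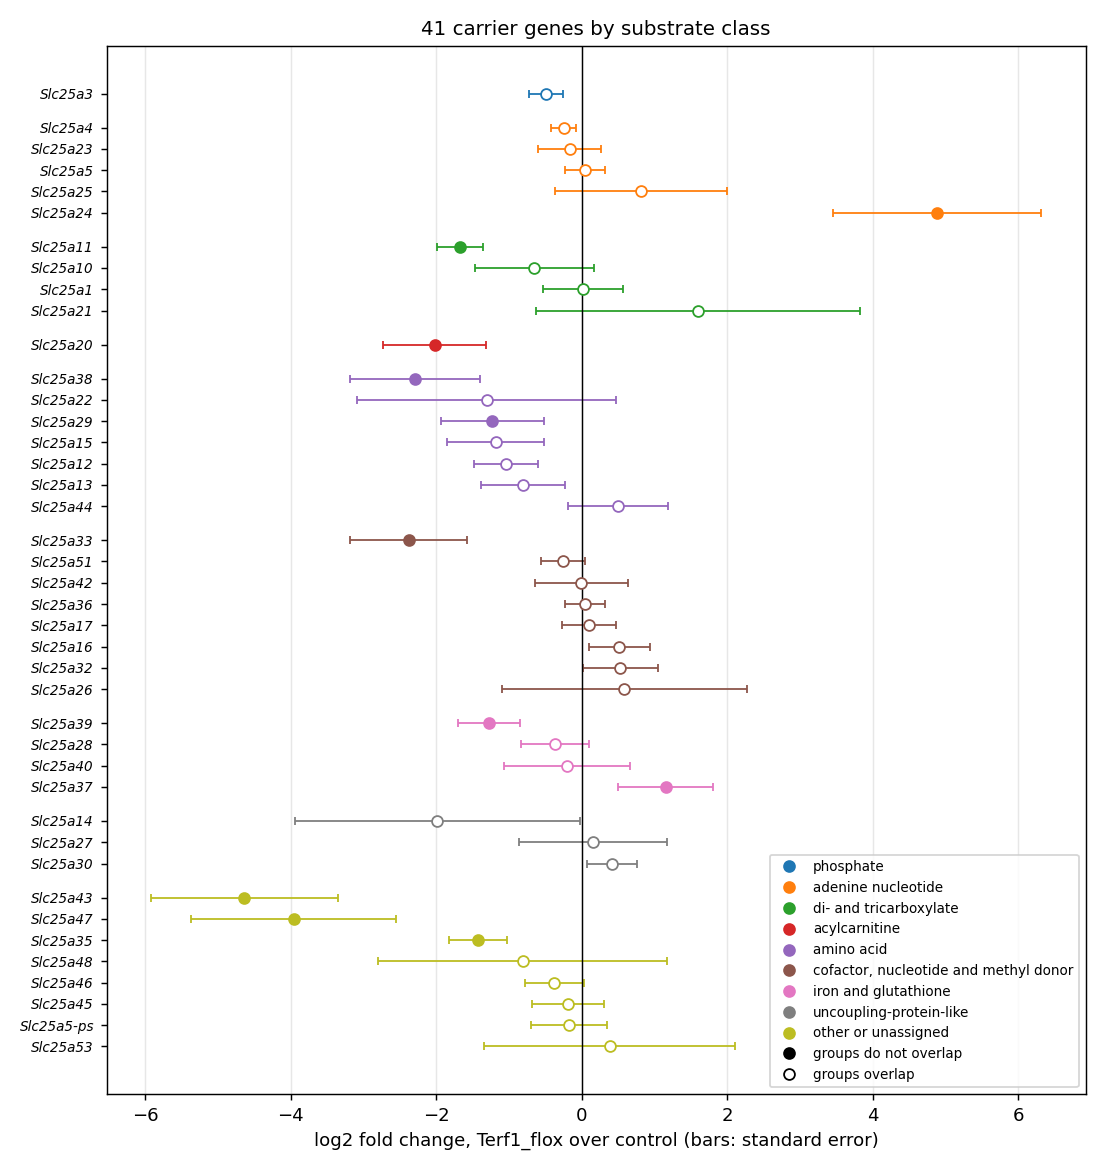
Log2 fold change, Terf1_flox over control, of 41 members on the horizontal axis, grouped and coloured by substrate class; bars are standard errors (limma, 3 libraries per group), filled points mark groups that do not overlap. The filled points left of 0 number 9, those right of 0 number 2 (Slc25a24 and Slc25a37), and bars are widest for members with few reads.

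Transcripts for adenine nucleotide exchange and phosphate import dominated the family. Slc25a5, Slc25a3 and Slc25a4 together made up 82.8%, 86.7% and 86.9% of all carrier normalized counts in the Terf1_flox libraries and 84.8%, 76.8% and 83.7% in the control libraries. The whole family took 0.721%, 0.995% and 0.786% of all normalized counts in Terf1_flox and 1.09%, 0.831% and 1.22% in control libraries, ranges that overlapped. Without Slc25a5, Slc25a3 and Slc25a4 the carrier sum was 18762, 20900 and 15870 normalized counts in Terf1_flox, against 23449, 24911 and 27888 in control libraries, without overlap. Per kilobase of transcript, the order of the control means was Slc25a5, Slc25a3, Slc25a4, Slc25a11, Slc25a39 and Slc25a17. On that scale Slc25a5 stood at 65840 ± 14813 in Terf1_flox and 66022 ± 23287 in control libraries (SD, n = 3 each), Slc25a3 at 10786 ± 3854 and 14599 ± 1179, and Slc25a4 at 6710 ± 612 and 8025 ± 1224. In control libraries the steps down from Slc25a5 to Slc25a3, to Slc25a4 and to Slc25a11 (5150 ± 781) were each larger than the SDs of the genes on either side. Slc25a39 (3874 ± 2315) differed from its neighbours Slc25a11 and Slc25a17 (1755 ± 806) by less than its own SD. These SDs hold the spread between libraries and no error in length. Lengths were medians over annotated transcripts, 770 bases for Slc25a11, 734 for Slc25a39 and 1724 for Slc25a17, and the order rests on them. Before this scaling the control mean was 2844 for Slc25a39 and 3025 for Slc25a17.

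Slc25a5 encodes the adenine nucleotide translocase ANT2, which swaps matrix ATP for cytosolic ADP. Its libraries held 65594, 101675 and 77656 normalized counts in Terf1_flox, against 94181, 48876 and 102545 in control. The groups overlapped over their whole range, with control replicate 2 the lowest of the 6, and the log2 fold change was 0.04 ± 0.28 (adjusted p = 0.961 by limma); it was −0.13 with equal totals and −0.17 with quantile normalization. Slc25a4, the ANT1 isoform best known from heart and muscle, held 12632, 11907 and 14211 in Terf1_flox, against 16734, 12730 and 16881 in control libraries. Its log2 fold change was −0.25 ± 0.17 (adjusted p = 0.551 by limma) and 0.10 after a correction for transcript GC content and length. Slc25a4 made up 16.1%, 10.5% and 15.5% of the summed Slc25a4 and Slc25a5 normalized counts in Terf1_flox and 15.1%, 20.7% and 14.1% in control libraries, a balance between the isoforms that also overlapped. The row Slc25a5-ps, a pseudogene copy of Slc25a5 whose reads may stem from it, stayed at 141 ± 4.27 in Terf1_flox and 160.2 ± 20.0 in control libraries.

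Slc25a3 imports the phosphate used by ATP synthase. It held 11852, 22516 and 13621 normalized counts in Terf1_flox, against 20261, 21075 and 23614 in control libraries. Terf1_flox replicates 1 and 3 lay below every control library and replicate 2 within their range; the log2 fold change was −0.49 ± 0.23 (adjusted p = 0.391 by limma). It was −0.30 without Terf1_flox replicate 1 and −0.77 without Terf1_flox replicate 2.

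**Figure D2:**
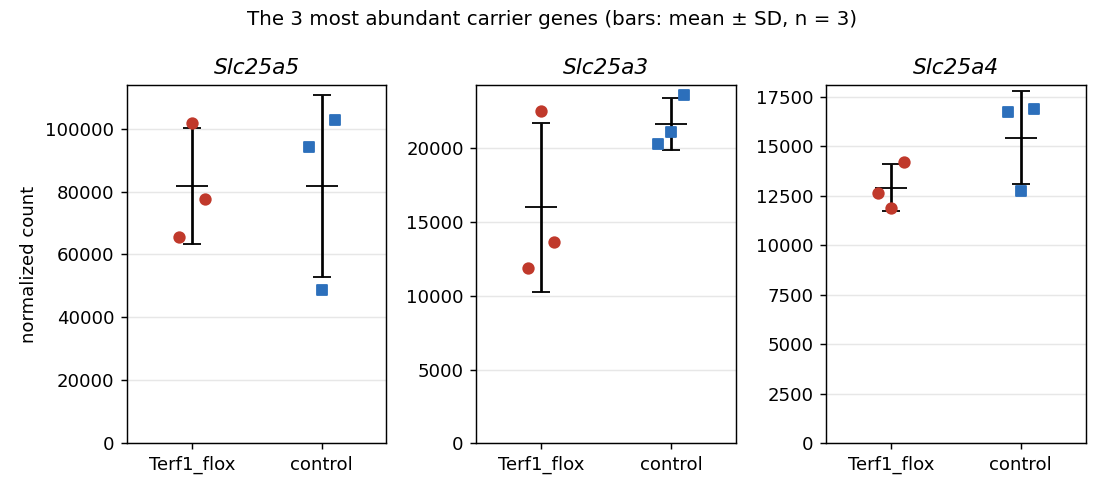
Normalized counts per library (points) of Slc25a5, Slc25a3 and Slc25a4, with the mean and SD of 3 libraries as bars, on linear axes from 0. The groups overlap in all 3 panels; for Slc25a3, Terf1_flox replicate 2 (22516) lies among the control libraries.

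The ATP-Mg/phosphate carriers, which move net adenine nucleotide and are switched by calcium, included the member with the largest positive fold change. Slc25a24 (SCaMC-1) held 158.8, 487.5 and 74.9 normalized counts in the Terf1_flox libraries, against 0, 5.72 and 33.2 in the control libraries, or 146, 475 and 74 recovered reads against 0, 6 and 42. Every Terf1_flox library was above every control library, although the Terf1_flox values themselves spanned 6.51-fold. The log2 fold change was 4.89 ± 1.43 (adjusted p = 0.198 by limma and 0.0184 by DESeq2). Its size rests on the pseudocount, at 5.26 with 0.5 and 3.87 with 5, and on single libraries, at 3.58 without control replicate 1 and 6.13 without control replicate 3. Its paralogs overlapped between groups. Slc25a23 averaged 466 ± 165 in Terf1_flox and 507 ± 136 in control libraries, and Slc25a25 averaged 90.9 ± 75.5 and 47.0 ± 38.7 (SD, n = 3 each).

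The member with the smallest p was Slc25a11, the oxoglutarate/malate carrier of the malate-aspartate shuttle, which brings reducing equivalents from glycolysis into mitochondria. It held 1168, 1852 and 863.2 normalized counts in the Terf1_flox libraries, against 3730, 3517 and 4649 in the control libraries. The lowest control library was above the highest Terf1_flox library, and the fitted difference was 3.19-fold (log2 fold change −1.68 ± 0.31, adjusted p = 0.0931 by limma). DESeq2 called it (adjusted p = 0.000141), as did limma when restricted to genes with a mean of at least 50 (adjusted p = 0.0321), where it was the 1 member among 132 genes called, 1.23% of those tested. Leaving out single libraries gave log2 fold changes between −1.97 and −1.42.

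The promoter windows of Slc25a11 and Slc25a24, the members with the smallest p in each direction, are shown because they mark the 2 ends of the comparison. Both come from RefSeq (build GRCm38.p6, 250 bases before to 50 after the start), 5′ to 3′ on the gene's strand, with matches to CCAAT or its reverse complement ATTGG in capitals. Slc25a11 lies at chr11:70646990-70647289 on the minus strand and Slc25a24 at chr3:109122899-109123198 on the plus strand.
Slc25a11: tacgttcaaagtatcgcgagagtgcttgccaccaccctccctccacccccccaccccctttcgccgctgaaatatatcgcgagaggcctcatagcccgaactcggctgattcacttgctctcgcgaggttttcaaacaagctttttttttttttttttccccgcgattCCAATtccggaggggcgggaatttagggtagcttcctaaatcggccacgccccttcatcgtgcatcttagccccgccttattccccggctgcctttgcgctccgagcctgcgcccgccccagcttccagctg
Slc25a24: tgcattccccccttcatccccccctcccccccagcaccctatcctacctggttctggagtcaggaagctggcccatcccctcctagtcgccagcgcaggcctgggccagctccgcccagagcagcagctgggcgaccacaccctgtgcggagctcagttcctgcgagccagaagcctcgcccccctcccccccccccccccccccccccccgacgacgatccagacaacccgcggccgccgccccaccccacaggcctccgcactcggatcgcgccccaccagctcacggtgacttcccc
The Slc25a11 window held 57% G and C, 24 CpG and 1 match to CCAAT, and the Slc25a24 window 72.3% G and C, 19 CpG and 0 matches. Windows were found for 32 of the 42 members. Their median GC content was 59.3% and median CpG count 15.5, against 52.7% and 7 over all 32851 windows. CCAAT, on either strand, occurred in 18 of these 32 members (56.2%, against 41.1% of all genes with a window), with Slc25a11, Slc25a29, Slc25a33 and Slc25a47 among them. Of the other members lower without overlap, Slc25a20, Slc25a38, Slc25a39 and Slc25a43 had a window without a match. A palindromic motif of the type bound by NRF1, a factor of mitochondrial biogenesis, occurred in 2 members (Slc25a3 and Slc25a10; 6.25%, against 7.0% of genes). TNAAGGTCA on either strand, the form bound by oestrogen-related receptors, occurred in 0 members and 1.43% of genes. A match is a string of letters in the window and nothing more.

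The malate-aspartate shuttle also needs an aspartate-glutamate carrier, of which mammals have a pair of isoforms. Slc25a12 (aralar) held 1178, 405.4 and 658.8 normalized counts in Terf1_flox, against 1054, 1358 and 1914 in control libraries. Terf1_flox replicate 1 lay within the control range and the other Terf1_flox libraries below it, with a log2 fold change of −1.04 ± 0.44 (adjusted p = 0.335 by limma). Slc25a13 (citrin) held 370.9, 334.6 and 122.5, against 743.3, 333.6 and 333.9. The groups overlapped, with a log2 fold change of −0.81 ± 0.58 (adjusted p = 0.573 by limma). It was −0.31 without Terf1_flox replicate 3 and −0.43 without control replicate 1, and that of Slc25a12 was −0.67 without Terf1_flox replicate 2. Slc25a11, Slc25a12 and Slc25a13 were all below 0 under every alternative run, and none passed limma over all genes tested with the deposited scaling.

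The other carboxylate carriers showed no such difference. Slc25a1, which exports citrate for fatty acid synthesis, averaged 167 ± 47.7 in Terf1_flox and 165 ± 50.4 in control libraries, with a log2 fold change of 0.02 ± 0.55 (−0.15 with equal totals). Slc25a10, the dicarboxylate carrier, held 206.7, 53.4 and 81.0 in Terf1_flox, against 170.7, 317.4 and 64.7 in control libraries (log2 fold change −0.65 ± 0.82). Leaving out single libraries gave −1.26 to −0.12 for Slc25a10, the ends without control replicate 3 and without control replicate 2, and the GC content and length correction gave −0.056. Slc25a21, the oxodicarboxylate carrier, was at 0, 124.2 and 174.1 in Terf1_flox, against 75.7, 4.77 and 0.789 in control libraries. Its values were high or near 0 in both groups, so its log2 fold change of 1.60 ± 2.22 has an error larger than itself, and single libraries moved it between 0.27 and 4.00.

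Slc25a20, the carnitine-acylcarnitine carrier through which long-chain fatty acids reach beta-oxidation, held 180.6, 305.8 and 44.5 normalized counts in the Terf1_flox libraries, against 494.4, 459.4 and 748.3 in the control libraries. The groups did not overlap, and Terf1_flox replicate 3 was the lowest library. The log2 fold change was −2.02 ± 0.71 (adjusted p = 0.262 by limma and 0.121 by DESeq2), and −1.23 without Terf1_flox replicate 3.

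Of the 7 amino acid carriers, 6 were below 0 (52.8% of all genes tested were), with a class median of −1.18 on the log2 scale. Slc25a38, the glycine importer that feeds haem synthesis, held 74.0, 99.5 and 11.1 normalized counts in Terf1_flox, against 164.5, 253.5 and 252.6 in control libraries. Its groups did not overlap (log2 fold change −2.29 ± 0.90, adjusted p = 0.301 by limma), and without Terf1_flox replicate 3 the log2 fold change was −1.34. Slc25a29, a carrier of basic amino acids, held 108.8, 178.6 and 36.4, against 190.9, 189.7 and 261.3. Its groups were apart by a narrow gap (log2 fold change −1.23 ± 0.71, adjusted p = 0.472 by limma), and the value was −0.60 without Terf1_flox replicate 3. Slc25a15, the ornithine carrier of the urea cycle, averaged 98.1 ± 54.6 in Terf1_flox and 222 ± 116 in control libraries, and overlapped. Slc25a22, a glutamate carrier, had 7.61, 0 and 10.1 in Terf1_flox and 2.64, 2.86 and 102.6 in control libraries, so that 1 control library held nearly all its reads. Slc25a44, which imports branched-chain amino acids, averaged 185 ± 119 and 121 ± 46.5.

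Among carriers of cofactors and nucleotides, 5 were above 0 and 4 below. Slc25a33, a pyrimidine nucleotide carrier, held 42.4, 33.9 and 12.1 normalized counts in the Terf1_flox libraries, against 156.6, 135.3 and 130.2 in the control libraries. The control libraries lay close together and all Terf1_flox libraries well below them (log2 fold change −2.38 ± 0.80, adjusted p = 0.245 by limma and 0.137 by DESeq2).

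Its paralog Slc25a36, also a pyrimidine nucleotide carrier, averaged 1387 ± 191 in Terf1_flox and 1348 ± 229 in control libraries. Slc25a17, the peroxisomal carrier of coenzyme A and FAD, averaged 3026 ± 607 and 3025 ± 1390 (log2 fold change 0.10 ± 0.37, −0.073 with equal totals). Slc25a51, the NAD importer, was the steadiest member in control libraries, at 1077, 736.9 and 1231 in Terf1_flox, against 1152, 1217 and 1198 in control. Neither these 3 nor Slc25a16 and Slc25a42, both tied to coenzyme A, or Slc25a32, a folate and FAD carrier, separated the groups. Slc25a16 averaged 963 ± 523 in Terf1_flox and 625 ± 132 in control libraries, Slc25a42 averaged 220.1 ± 156 and 189.6 ± 43.9, and Slc25a32 averaged 352 ± 50.2 and 271 ± 165. Slc25a26, which imports the methyl donor S-adenosylmethionine, was at 241.5, 6.16 and 100.2 in Terf1_flox and 20.2, 303.1 and 7.10 in control libraries, a 39.2-fold and a 42.7-fold range within 1 group.

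Of the 4 iron and glutathione carriers, 1 was lower and 1 higher without overlap, against 10.8% and 10.3% of all genes tested. Slc25a39, needed for glutathione import, held 1490, 848.7 and 924.0 normalized counts in Terf1_flox, against 1931, 4804 and 1796 in control libraries. The groups did not overlap, but control replicate 2 stood far above its fellows; the log2 fold change was −1.28 ± 0.42 (adjusted p = 0.239 by limma and 0.0261 by DESeq2), and −0.82 without control replicate 2. Its paralog Slc25a40 averaged 195 ± 194 in Terf1_flox and 189 ± 107 in control libraries.

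Slc25a37, mitoferrin-1, which imports iron and is best known from red cell precursors, held 290.4, 181.7 and 96.1 normalized counts in Terf1_flox, against 86.2, 71.5 and 73.4 in control libraries. All Terf1_flox libraries were higher, replicate 3 by little (log2 fold change 1.15 ± 0.65, adjusted p = 0.468 by limma and 0.382 by DESeq2). Erythroid markers with a row (4 of 6, all globins; red cells were lysed before the sort) summed to 180.6, 150.9 and 553.6 in Terf1_flox and 746, 442.3 and 190.2 in control libraries. The widely expressed mitoferrin-2, Slc25a28, averaged 288 ± 83.9 in Terf1_flox and 377 ± 143 in control libraries.

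Slc25a30, the kidney mitochondrial carrier KMCP1 and the most abundant of the uncoupling-protein-like members, held 2595, 4195 and 2510 normalized counts in Terf1_flox, against 1514, 2287 and 3310 in control libraries. The groups overlapped (log2 fold change 0.42 ± 0.34, adjusted p = 0.629 by limma), with 0.13 without control replicate 1 and 0.69 without control replicate 3. Slc25a14 averaged 104 ± 90.1 in Terf1_flox and 176 ± 154 in control libraries, and Slc25a27 averaged 153 ± 149 and 119 ± 76.4.

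Members whose substrate is unassigned or less certain included the largest negative fold change. Slc25a43 held 0, 4.11 and 7.08 normalized counts in Terf1_flox, against 57.2, 224.9 and 47.4 in control libraries, or 0, 4 and 7 recovered reads against 65, 236 and 60. It was near absent from every Terf1_flox library, with a log2 fold change of −4.64 ± 1.28 (adjusted p = 0.188 by limma and 0.0157 by DESeq2) and −3.47 with a pseudocount of 5. Without Terf1_flox replicate 1 it was −3.74. Slc25a35 held 368.7, 628.1 and 813.7, against 1716, 1065 and 2012. The groups did not overlap (log2 fold change −1.43 ± 0.40, adjusted p = 0.191 by limma and 0.0186 by DESeq2).

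Slc25a47, a carrier best known from liver, was low throughout, at 0, 1.03 and 2.02 in Terf1_flox and 6.16, 62.0 and 50.5 in control libraries. The log2 fold change was −3.96 ± 1.41 (adjusted p = 0.266 by limma), and −2.54 with a pseudocount of 5. Without control replicate 1 it was −4.96. Slc25a46, an outer membrane member tied to mitochondrial dynamics, averaged 657 ± 254 in Terf1_flox and 839 ± 250.2 in control libraries. Slc25a45 averaged 241 ± 60.1 and 281 ± 100.5, Slc25a48 averaged 80.9 ± 109 and 56.9 ± 44.8, and Slc25a53 averaged 87.9 ± 118 and 43.4 ± 35.9, all with overlap.

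In the RefSeq gene order, members were next to each other in 2 pairs among protein-coding genes. Slc25a29 and Slc25a47 are neighbours, and both were lower without overlap. Slc25a43 and Slc25a5 are neighbours, and the first was near 0 in Terf1_flox libraries while the second was the most abundant member in both groups.

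**Figure D3:**
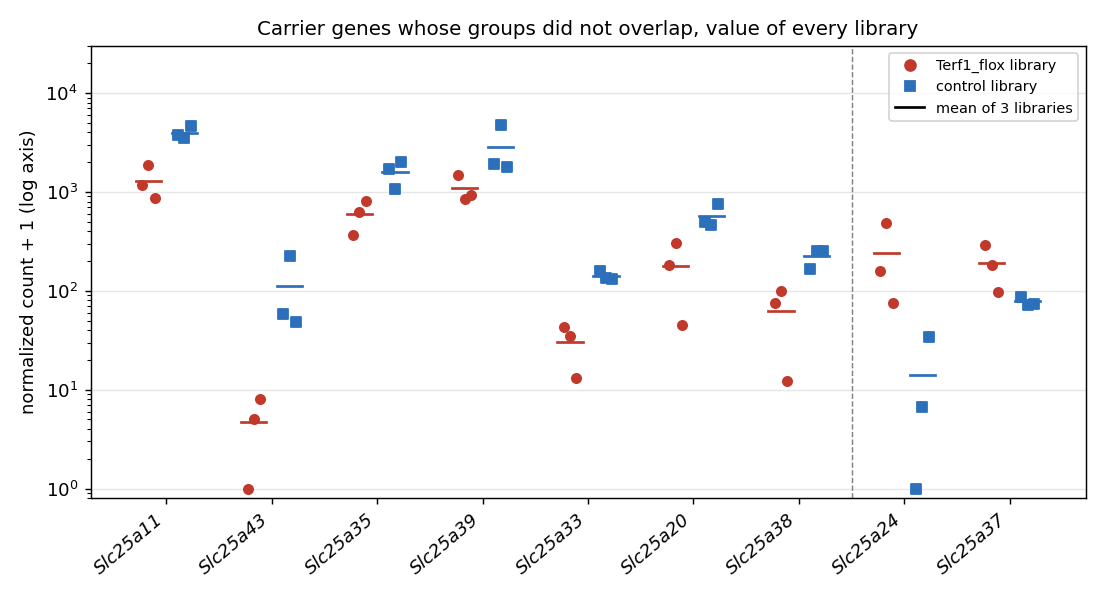
Normalized count plus 1 (log axis) in each library for 9 members with a mean of at least 50 whose groups did not overlap. Left of the dashed line are 7 lower in Terf1_flox, chosen for the smallest p, and right of it the 2 higher. Slc25a29, also lower without overlap, is not drawn. Horizontal bars are means of 3 libraries. The lowest Slc25a11 control library (3517) lies well above the highest Terf1_flox library (1852), whereas Slc25a43 and Slc25a24 each have libraries near 0.

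The lower members named with a mean of at least 50 and the smallest p without overlap (Slc25a11, Slc25a43, Slc25a35, Slc25a39, Slc25a33, Slc25a20 and Slc25a38) belonged to 6 substrate classes, a description, since they were picked for their separation. Spread between libraries was wider at low levels. For the 11 members with a mean of at least 1000, the median coefficient of variation was 30.6% in Terf1_flox and 30.3% in control libraries, and for the 21 members under 200 it was 86.7% and 68.9%. Reads were found for 37, 41 and 42 of the 42 members in the Terf1_flox libraries and for 41, 42 and 42 in the control libraries.

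The comparison varied with transcript composition. With all genes tested split into 5 equal bins of GC content, the lowest bin (up to 44.0%) had a median of 0.36 on the log2 scale and the highest (above 55.4%) one of −0.49. The carriers had a median transcript GC content of 52.3%, against 49.6% for all genes tested, and 12 of the 42 lay in the highest bin. Among these 12, 10 were below 0 and 5 were lower without overlap. Among the 5 in the lowest bin, 2 were below 0 and none was lower without overlap. Over all genes tested 52.8% were below 0 and 10.8% lower without overlap. The shares over all genes within a bin were not counted. Across the 42 members GC content and log2 fold change had a Pearson correlation of −0.39 and a Spearman correlation of −0.39, as a description; the genes share libraries and are not replicates.

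After each library was corrected for GC content and length over all genes, 23 carriers were below 0 and 19 above, and the carrier median was −0.054 beside −0.10 for all genes. Of the members without overlap, Slc25a11 was then at −1.51, Slc25a35 at −1.10, Slc25a39 at −1.04, Slc25a33 at −1.92, Slc25a20 at −1.79, Slc25a38 at −1.83, Slc25a43 at −4.27 and Slc25a24 at 4.53. Slc25a29 was at −0.63 and Slc25a37 at 1.72, so all kept their sign. The mitochondrially encoded share of all normalized counts was 18.1%, 16.2% and 20.6% in Terf1_flox and 13.0%, 12.9% and 10.3% in control libraries, and its part in the carrier results was not tested.

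**Figure D4:**
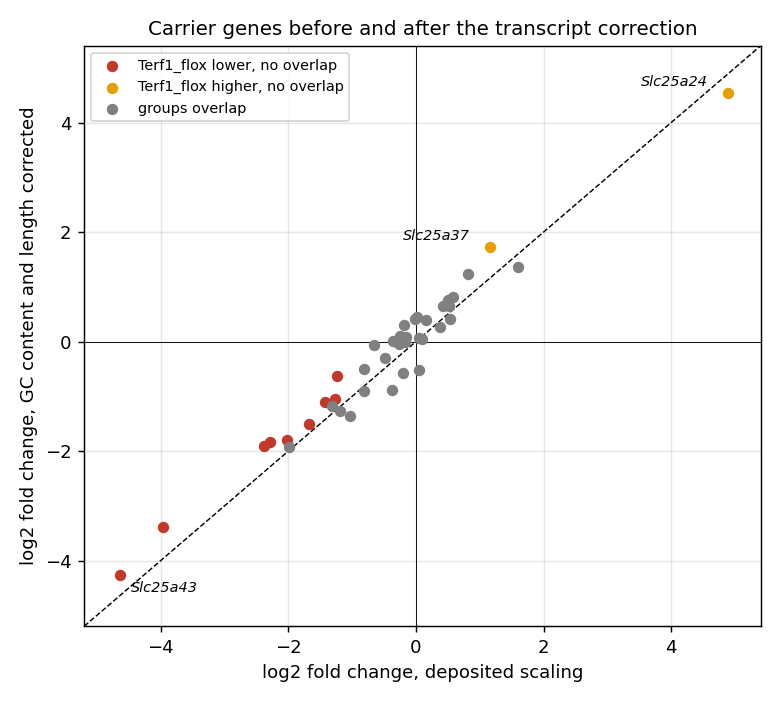
Log2 fold change, Terf1_flox over control, of 41 members with the deposited scaling (horizontal) and after correction for transcript GC content and length (vertical); the dashed line marks equality. The members without overlap keep their sign (Slc25a11 at −1.68 and −1.51), while 6 other members, all nearer 0, changed sign.

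Other genes of mitochondrial solute transport were counted on the same fit, and limma called 0 of them. Of 5 carrier family genes with other symbols, 3 had a row. Ucp2, the uncoupling protein of many tissues, held 249.1, 408.5 and 541.4 normalized counts in Terf1_flox, against 542.8, 1370 and 1070 in control libraries, narrowly without overlap (log2 fold change −1.28, adjusted p = 0.275 by limma), whereas Mtch1 and Mtch2 overlapped. In each list, the counts at an unadjusted p below 0.05 equalled the counts without overlap given here, but not always for the same genes. Among the inner membrane transporters, Sfxn4 did not overlap at an unadjusted p of 0.114 by limma, while Sfxn1 overlapped at 0.0222. Over all genes tested, 10.3% were higher and 10.8% lower without overlap. Of 17 other inner membrane transporters, 2 were higher and 3 lower (Sfxn3, Sfxn4 and Letm1) without overlap. The 2 were Mpc1 and Mpc2, which together form the mitochondrial pyruvate carrier. Mpc1 held 34977, 40788 and 33072 in Terf1_flox, against 25608, 17067 and 25338 in control libraries (log2 fold change 0.70, adjusted p = 0.178 by limma and 0.0424 by DESeq2), and Mpc2 had a log2 fold change of 0.39 (adjusted p = 0.232 by limma).

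Among 7 porin and acylcarnitine shuttle genes with a row, all were below 0 and 3 (Vdac1, Vdac3 and Cpt1b) were lower without overlap. Of all genes tested, 52.8% were below 0 and 10.8% lower without overlap. Vdac1, the main outer membrane porin, held 1709, 1902 and 2560 normalized counts in Terf1_flox, against 3830, 5457 and 4267 in control libraries (log2 fold change −1.14, adjusted p = 0.126 by limma and 0.00288 by DESeq2). Cpt2 and Crat, acyltransferases that handle acylcarnitines in mitochondria, had log2 fold changes of −1.05 and −1.34 with overlap. Carrier precursors reach the inner membrane through small TIM chaperones and the TIM22 insertase. Of 10 such genes, 2 (Timm8b and Timm10b) were higher and 1 lower without overlap, against 10.3% and 10.8% of all genes tested. Timm22, the insertase itself, held 427.5, 888.8 and 522.2 in Terf1_flox, against 1013, 1084 and 1305 in control libraries (log2 fold change −0.95, adjusted p = 0.289 by limma). The chaperone Timm8b was higher, at 11399, 13171 and 7621 in Terf1_flox, against 5967, 4308 and 4852 in control libraries (log2 fold change 1.07, adjusted p = 0.134 by limma and 0.00216 by DESeq2).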

How the data were processed

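RNA was sequenced from 6 libraries of sorted kidney epithelial cells, 3 per group. The authors deposited a signal per gene, its normalized count, in which each library's reads are divided by 1 size factor. DESeq2 and build GRCm39 are named per the submitters' processing notes; aligner, counting tool, strand setting, annotation and gene filter: not given in the sources used here. Values were whole multiples of 1 read's worth (within 0.01) in all libraries, so whole reads were recovered.

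The members and lists were chosen with earlier results of these data known. limma 3.58.1 (R 4.3.3, trend) was fitted to log2(normalized count + 1) of 14822 genes with a mean of at least 10. Tests were two-sided and Benjamini-Hochberg adjusted over all genes. Folds of low genes depend on the pseudocount and on libraries near 0, and can be smaller or larger than by DESeq2. Log2 fold changes by limma and DESeq2 were −4.64 and −4.86 for Slc25a43, −1.98 and −0.74 for Slc25a14, and −0.81 and 0.53 for Slc25a48. edgeR 4.0.16 and DESeq2 1.42.0 used recovered reads. Transcript length and GC content were medians over protein-coding transcripts of GENCODE M21 (GRCm38; found for 98.83% of genes tested) and may differ from the expressed transcript. Coordinates are given for RefSeq windows alone. Always described were Slc25a1, Slc25a3, Slc25a4, Slc25a5, Slc25a10, Slc25a11, Slc25a12, Slc25a13 and Slc25a20. Library values were also given for up to 8 members per direction with a mean of at least 50, no overlap and the smallest p, the 6 highest means and the 3 widest control spreads. Slc25a29, Slc25a47 and the pathway genes given by name were picked after their values were seen. Alternatives were scaling, pseudocount, filter, tool, replicate block, GC content and length correction, and leaving out each library. The fits were tested on simulated data, where limma and edgeR made few or no false calls and DESeq2 many. There limma and edgeR also missed most of the smaller changes put in and many of the largest, and DESeq2 missed fewer. Figures used matplotlib 3.10.9. The values of 1 member are not reported here; counts and medians over the 42 include it.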

Additional observations from a re-analysis of the deposited data

How the results depend on the processing

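limma called 45 genes with equal library totals, 8 with quantile normalization and 132 at a mean of at least 50, and DESeq2 called 772; of the carriers, 1 was called at a mean of at least 50 and 6 by DESeq2. No other alternative called a gene or a carrier. Terf1 passed with equal totals (−4.17), at a mean of at least 50 (−3.99) and with DESeq2 (−3.89). The carrier median was −0.43 with equal totals (all genes −0.24), −0.13 with equal upper quartiles (all genes 0.04), −0.21 with edgeR and with DESeq2 and −0.054 with GC content and length corrected. Leaving out 1 library gave −0.35 to −0.24, and 0 genes called. Of 23 carriers followed through the alternatives, 18 kept their sign under every alternative run. Opposite signs came with equal totals for Slc25a1 (−0.15), Slc25a17 (−0.073) and Slc25a5 (−0.13), with quantile normalization for Slc25a5 (−0.17) and with the GC content and length correction for Slc25a4 (0.10). Leaving out 1 library moved Slc25a1 between −0.19 and 0.26, Slc25a17 between −0.32 and 0.42, Slc25a26 between −0.52 and 2.09 and Slc25a5 between −0.29 and 0.24; the cause was not tested. Same-numbered libraries did not deviate together over all genes tested (correlations −0.049, 0.00013 and −0.0069). A pairing that touches few genes could not be seen this way. With the replicate block 0 genes and 0 carriers were called and the carrier median was −0.26. Counting error bears most on members with few reads, such as Slc25a43 (0, 4 and 7 reads in Terf1_flox libraries) and Slc25a47 (0, 1 and 2 reads); how much of the spread of other low members it makes up was not tested.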
